A study of Mus musculus with 32 samples.

Results

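Flt3, Cd28, Emb, Grap2, Ly6a and Prdm1 belong to the genes that the transcription factor Pax5 is known to hold down in B cells, and their expression was described here against the number of intact Pax5 alleles. The genes were chosen by name for this role, by a rule that uses no value of these arrays, though earlier results of these data were known. A probeset was taken where its annotation named exactly 1 of the genes, which gave 5 of the 6 genes, 1 probeset each, among 19938 genes and 28944 probesets. No probeset named Ly6a, which encodes the progenitor antigen Sca-1, so Ly6a was not analysed here.

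Pax5 commits lymphoid progenitors to the B lineage. It switches on genes of the B-cell receptor and its signaling, and it represses genes of progenitors and of other lineages, which return when Pax5 is lost. Among the genes described here, Flt3 encodes the cytokine receptor of early progenitors, Cd28 the costimulatory receptor of T cells, and Emb the membrane glycoprotein embigin, a partner of lactate transporters. Grap2 encodes Gads, an adaptor of T-cell receptor signaling, and Prdm1 encodes Blimp1, the transcription factor of plasma cell differentiation.

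The 32 Affymetrix gene arrays of mouse RNA fall into 2 experiments. The proB experiment compared bone marrow proB cells of WT mice with those of Pax5+/-, of Pax5+/-;Myd88+/- and of Pax5+/-;Myd88-/- mice, each on 4 arrays. The labels describe B220+ cells sorted with magnetic beads, whereas the methods of the study describe expansion of such cells from young mice with IL7 on ST2 feeder cells, and give no culture of the Pax5+/-;Myd88-/- genotype. The leukemia experiment held bone marrow of 6 leukemic Pax5+/- mice, bone marrow of 6 leukemic Pax5+/-;Myd88+/- mice, and 4 arrays of WT proB and preB cells sorted as B220low IgM-. Thus by germline genotype WT cells had 2 intact alleles of both genes. Every other group had 1 intact Pax5 allele, and its intact Myd88 alleles numbered 2, 1 or 0. Both deletions were germline, so all cells of a mouse carried them. The study reports recurrent mutations of the remaining Pax5 allele in Pax5+/- leukemias, so the allele count given for leukemias is that of the germline. The state of that allele in these leukemias was not analysed here. Mice were of a mixed C57BL/6 x CBA background, and the labels give SPF housing until 2 months of age and a conventional facility afterwards. For the proB arrays this conflicts with the methods, whose cultured proB cells came from mice a few weeks old, before such a move. The replicates are labeled biological, without naming the animal or culture, so the p-values below measure the spread between these arrays.

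Values are log2 of the RMA signal, on which a difference of 1 is a fold of 2. Array medians were 6.88 to 7.03, and the lowest correlation between replicates was 0.9666. WT proB arrays 1 and 3 (r = 0.998) and 2 and 4 (r = 0.998) were closer to each other than the other WT pairs (r = 0.991), so that the results against WT were also computed with each pair averaged. Over all probesets the Pax5+/- proB arrays showed the same pairs, but the other 2 proB genotypes did not. In Pax5+/-;Myd88+/- cells arrays 2 and 4 (r = 0.9949) were no closer than 1 and 4 (r = 0.9949). In Pax5+/-;Myd88-/- cells arrays 1 and 3 (r = 0.9972) were less close than 1 and 4 (r = 0.9977). In stromal markers, however, arrays 1 and 3 differed from 2 and 4 in every proB genotype. The summed level of 9 stromal markers was 12.34 to 12.42 against 11.39 in WT, 12.51 to 12.54 against 10.77 to 10.82 in Pax5+/-, 11.95 against 11.0 in Pax5+/-;Myd88+/-, and 11.21 to 11.28 against 10.81 to 10.89 in Pax5+/-;Myd88-/- cells. Hence the proB comparisons were also computed with these array sets as a block, and with both sets averaged in every genotype, which leaves 2 samples each. Xist, the RNA of the inactive X chromosome, read 5.32 to 6.11 in the WT and Pax5+/- proB arrays and 12.23 to 12.52 in the other 2 proB genotypes and the sorted WT cells. It spanned 5.39 to 12.80 in the leukemias. Sex therefore cannot be told apart from loss of Myd88 where proB cells with intact Myd88 are compared with the other 2 proB genotypes. WT and Pax5+/- proB cells matched in Xist, as did Pax5+/-;Myd88+/- and Pax5+/-;Myd88-/- proB cells. The B-lineage gene Cd79a read 12.10 to 13.01 in the proB and sorted cells and 9.81 to 13.09 in the leukemias. The T cell gene Cd3d was at most 5.96 on every array. A probeset was called at a limma adjusted p below 0.05 and a fold over 2, and beside each count of the 5 genes stands the percent of all probesets that passed the same rule.

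The promoters of the 3 genes with the largest differences are shown, as RefSeq sequence on GRCm38.p6 (mm10). Each holds the 250 bases before a transcript start, which for Grap2 lies within the gene. They were searched on both strands for GCGTGAC, the end of the Pax5 paired-domain consensus that matches would show in capitals.
Flt3 (chr5:147400490-147400739, minus strand): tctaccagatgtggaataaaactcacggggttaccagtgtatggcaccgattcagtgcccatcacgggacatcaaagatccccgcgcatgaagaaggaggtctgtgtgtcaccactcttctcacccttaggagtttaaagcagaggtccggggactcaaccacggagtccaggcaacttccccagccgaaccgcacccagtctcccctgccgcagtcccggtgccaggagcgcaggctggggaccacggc
Emb (chr13:117220323-117220572, plus strand): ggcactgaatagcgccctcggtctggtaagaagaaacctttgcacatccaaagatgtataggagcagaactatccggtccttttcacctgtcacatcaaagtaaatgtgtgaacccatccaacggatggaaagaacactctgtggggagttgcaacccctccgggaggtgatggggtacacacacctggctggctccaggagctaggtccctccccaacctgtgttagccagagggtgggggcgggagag
Grap2 (chr15:80623233-80623482, plus strand): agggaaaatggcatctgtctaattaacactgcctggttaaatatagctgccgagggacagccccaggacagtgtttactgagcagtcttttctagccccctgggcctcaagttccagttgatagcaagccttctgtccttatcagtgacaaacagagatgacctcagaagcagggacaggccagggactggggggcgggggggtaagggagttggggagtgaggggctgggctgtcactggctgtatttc
None of these 3 windows held GCGTGAC, nor did that of Prdm1, and Cd28 had no entry in the table. Of 32851 promoters in the table, 584 (1.78%) held it. The absence concerns only these letters in these windows.

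Pax5 mRNA, read by 1 probeset, was set beside the allele count, and does not measure Pax5 protein or activity. It read 11.53, 11.81, 11.63 and 11.81 in WT proB cells. Pax5+/- cells read 10.86, 11.29, 10.99 and 11.34, Pax5+/-;Myd88+/- cells 11.15, 11.41, 11.02 and 11.26, and Pax5+/-;Myd88-/- cells 11.05, 10.96, 10.93 and 10.88. All 12 arrays with 1 intact allele lay below all 4 WT arrays, by 0.60 on average (95% interval -0.78 to -0.42, a 1.52-fold difference, limma adjusted p = 0.000176). In the leukemia experiment the sorted WT cells read 11.81 to 12.05. The Pax5+/- leukemias had a lowest value of 7.69, a median of 11.48 and a highest of 12.29, and the Pax5+/-;Myd88+/- leukemias 9.07, 10.82 and 11.95. Pax5 mRNA thus ranged widely among leukemias of 1 genotype, and neither leukemia group was separated from the sorted cells (limma adjusted p = 0.392 and 0.287).

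Flt3 was higher with 1 Pax5 allele in every proB genotype. It read 9.37, 8.92, 9.26 and 8.91 in WT proB cells. Its values were 10.11, 10.36, 10.13 and 10.27 with 1 Pax5 allele and Myd88 intact, 10.02, 10.22, 10.12 and 10.26 in Pax5+/-;Myd88+/- cells, and 10.47, 10.45, 10.40 and 10.47 in Pax5+/-;Myd88-/- cells. No array with 1 Pax5 allele overlapped the WT arrays. Over the 3 Pax5+/- genotypes together Flt3 rose 2.23-fold, by 1.16 on the log2 scale (SE 0.08, limma adjusted p = 3.71e-08). Exact permutation of 12 against 4 arrays, 2-sided, gave p = 0.000549, the smallest this test can give. That test counts each array as independent, although WT arrays 1 and 3, and 2 and 4, were closer to each other. Flt3 was the only one of the 5 genes called in this comparison, beside 0.843% of all probesets. Flt3 rose by 1.10 in Pax5+/- (95% interval 0.90 to 1.31, limma adjusted p = 7.71e-07), by 1.04 in Pax5+/-;Myd88+/- (0.84 to 1.24, adjusted p = 1.18e-06) and by 1.33 in Pax5+/-;Myd88-/- cells (1.13 to 1.54, adjusted p = 8.02e-08). In each it was again the only one called, where 1.08%, 1.15% and 1.28% of all probesets were. With each WT pair averaged, or with arrays 1 and 3, and 2 and 4, averaged in every genotype (adjusted p 0.00602 to 0.019) or taken as a block, Flt3 was still called in all 3. With all 32 arrays in 1 fit, whose spread includes the leukemias, Flt3 was not called (adjusted p = 0.104 for the 3 genotypes together). Leaving out WT replicate 2 or 4 brought the difference of the Pax5+/-;Myd88+/- cells to 0.975 and 0.97, under the fold of 2.

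**Figure D1:**
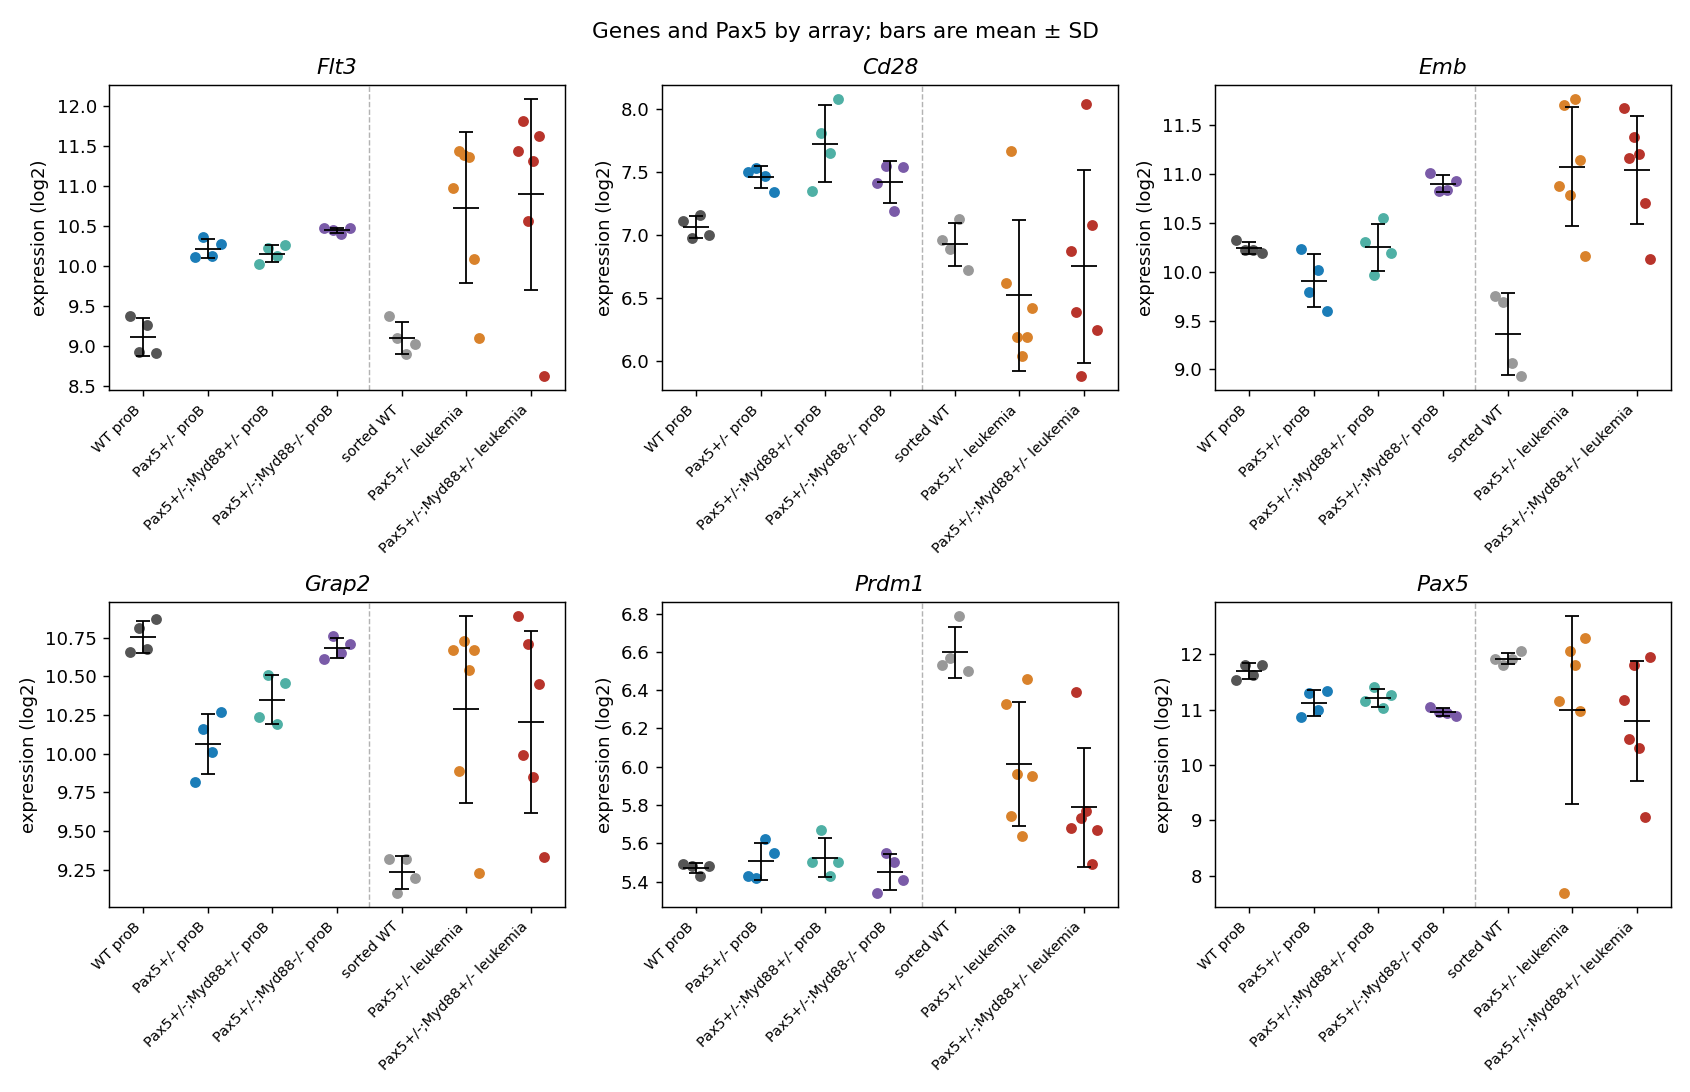
Expression (log2) of the 5 measured genes and of Pax5 on each of the 32 arrays, by group, with the proB experiment left of the dashed line and the leukemia experiment right of it; horizontal bars are means and whiskers SD. The Flt3 values of all Pax5+/- proB genotypes lie between 10.02 and 10.47, above the WT arrays at 8.91 to 9.37, and the leukemias spread over a wider range than the sorted WT cells for each of the 5 genes.

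In the leukemias Flt3 was higher still in most arrays, and more variable. The sorted WT cells read 9.37, 9.10, 8.90 and 9.02. The Pax5+/- leukemias ran from 9.10 over a median of 11.17 to 11.44, and the Pax5+/-;Myd88+/- leukemias from 8.62 over 11.38 to 11.81. Only replicate 6 of each genotype, at 9.10 and 8.62, fell within or below the range of the sorted cells. Flt3 rose 3.09-fold in Pax5+/- leukemias (by 1.63, SE 0.57, limma adjusted p = 0.0492) and 3.48-fold in Pax5+/-;Myd88+/- leukemias (by 1.80, SE 0.57, adjusted p = 0.0253). These calls were marginal. For Pax5+/- leukemias, leaving out any 1 of the 10 arrays compared other than leukemia replicate 6 ended the call (adjusted p between 0.0507 and 0.111), and without replicate 6 it was 0.0137. For Pax5+/-;Myd88+/- leukemias, leaving out leukemia replicate 1, 2 or 5, or sorted replicate 2, 3 or 4, raised it to between 0.05003 and 0.0645, and without replicate 6 it was 0.000931.

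Emb separated the leukemias most clearly. It read 9.75, 9.69, 9.07 and 8.93 in the sorted WT cells, 10.16 to 11.77 with a median of 11.01 in Pax5+/- leukemias, and 10.13 to 11.68 with a median of 11.18 in Pax5+/-;Myd88+/- leukemias. All 12 leukemias lay above all 4 sorted arrays. Emb rose 3.28-fold in Pax5+/- leukemias (by 1.72, 95% interval 1.01 to 2.42, limma adjusted p = 0.00157) and 3.21-fold in Pax5+/-;Myd88+/- leukemias (by 1.68, 0.98 to 2.39, adjusted p = 0.00103). Both calls held with each array left out in turn (adjusted p at most 0.00859 and 0.00557).

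In proB cells Emb did not follow Pax5 dose. It read 10.33, 10.22, 10.22 and 10.19 in WT cells, against 10.23, 9.79, 10.02 and 9.60 in Pax5+/- cells. The 4 values were 10.30, 9.97, 10.55 and 10.19 in Pax5+/-;Myd88+/- cells, and 11.01, 10.83, 10.84 and 10.93 in Pax5+/-;Myd88-/- cells. The Pax5+/- values reached from below the WT range into it, and the Pax5+/-;Myd88-/- values were above all other proB arrays. Against WT the difference was -0.33 in Pax5+/- (limma adjusted p = 0.145, or 0.0439 with the array sets as a block), 0.01 in Pax5+/-;Myd88+/- (adjusted p = 0.981) and 0.66 in Pax5+/-;Myd88-/- cells (95% interval 0.40 to 0.92, adjusted p = 0.00163). Pax5+/-;Myd88-/- exceeded Pax5+/- proB cells 1.99-fold (0.99, 95% interval 0.73 to 1.25, adjusted p = 4.54e-05), just under the fold of 2. It passed that fold when Pax5+/- replicate 1 or 3 or Pax5+/-;Myd88-/- replicate 2 or 3 was left out (1.01 to 1.10), and with arrays centred on their medians. Averaging the array sets in every genotype left the difference from Pax5+/- (adjusted p = 0.0437) but not that from WT (adjusted p = 0.0816).

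Grap2 went in opposite directions in the 2 experiments. WT proB cells read 10.66, 10.81, 10.68 and 10.87, and Pax5+/- cells 9.82, 10.16, 10.01 and 10.27. Pax5+/-;Myd88+/- cells gave 10.24, 10.51, 10.19 and 10.46, while Pax5+/-;Myd88-/- cells gave 10.61, 10.76, 10.65 and 10.71. The first 2 of these Pax5+/- genotypes lay below every WT array, and the third overlapped WT. In each of the 4 genotypes arrays 1 and 3 read lower than arrays 2 and 4. Against WT, Grap2 was 1.61-fold lower in Pax5+/- cells (-0.69, 95% interval -0.89 to -0.49, limma adjusted p = 9.90e-05) and 1.32-fold lower in Pax5+/-;Myd88+/- cells (-0.41, -0.60 to -0.21, adjusted p = 0.0127), neither reaching a fold of 2. The latter was lost with WT pairs averaged (adjusted p = 0.0884), and both with the array sets averaged in every genotype (adjusted p = 0.0733 and 0.349). With these sets as a block both had smaller p (adjusted p = 5.40e-07 and 0.000154). The Pax5+/-;Myd88-/- cells differed from WT by -0.07 (-0.27 to 0.13, adjusted p = 0.66) and were 1.53-fold above Pax5+/- cells (0.62, adjusted p = 0.000359, or 0.0913 with the array sets averaged).

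In the leukemia experiment the sorted WT cells had the lowest Grap2 of all groups, at 9.32, 9.10, 9.32 and 9.20. Pax5+/- leukemias ran from 9.23 over a median of 10.61 to 10.73, and Pax5+/-;Myd88+/- leukemias from 9.33 over 10.22 to 10.89. As for Flt3, replicate 6 was the lowest of each genotype, and 11 of the 12 leukemias were above all sorted cells, the exception being Pax5+/- replicate 6. Grap2 rose 2.08-fold in Pax5+/- leukemias (1.05, SE 0.32, limma adjusted p = 0.0248). The call was lost, by p or by fold, without leukemia replicate 1, 3 or 5 or sorted replicate 2, 3 or 4 (0.97 to 1.08, adjusted p 0.0486 to 0.0623). In Pax5+/-;Myd88+/- leukemias Grap2 was 1.96-fold higher (0.97, adjusted p = 0.0293), and passed the fold of 2 without leukemia replicate 2, 4 or 6 (1.01 to 1.14). Without any 1 of the other 7 arrays its adjusted p was 0.0551 to 0.0741.

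The opposite directions were tested as the difference between the Pax5+/- effect in leukemia and in proB cells, a comparison added after the values had been seen, whose 2 WT references differ in how the cells were obtained. Grap2 differed by 1.74 (95% interval 1.01 to 2.48, limma adjusted p = 0.000895) and Emb by 2.045 (1.26 to 2.83, adjusted p = 0.000319). These were 2 of 5 genes called, beside 5.79% of all probesets, and 3 of 5 against 18.5% without a minimum fold, the third being Prdm1 (-0.62, adjusted p = 0.0281). For Flt3 the difference was 0.53 (-0.77 to 1.83, adjusted p = 0.619). The Grap2 means of the 2 WT references differed by 1.52 (10.76 in WT proB and 9.24 in sorted cells) and those of Pax5+/- leukemias and proB cells by 0.22 (10.29 and 10.06), whereas for Emb these differences were 0.88 and 1.17. With the proB array sets averaged the adjusted p was 0.0537 for Grap2 and 0.0308 for Emb.

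Cd28 was slightly higher in all proB cells with 1 Pax5 allele. It read 7.11, 6.98, 7.16 and 7.0 in WT cells and 7.5, 7.53, 7.47 and 7.34 in Pax5+/- cells. Pax5+/-;Myd88+/- arrays gave 7.35, 7.81, 7.65 and 8.08, and Pax5+/-;Myd88-/- arrays 7.41, 7.55, 7.19 and 7.54. All 12 values exceeded the 4 WT values. Over the 3 genotypes the difference was 0.47 (1.39-fold, 95% interval 0.27 to 0.68, limma adjusted p = 0.00433), with 0.66 in Pax5+/-;Myd88+/- cells (adjusted p = 0.00176) and 0.40 and 0.36 in the other 2 (adjusted p = 0.0578 and 0.0517, or 0.0402 and 0.0358 with the array sets as a block). The pooled difference did not pass with WT pairs averaged (adjusted p = 0.0726) or with the array sets averaged in every genotype (adjusted p = 0.154). In the leukemia experiment Cd28 read 6.96, 6.89, 7.13 and 6.72 in sorted cells, 6.04 to 7.67 (median 6.31) in Pax5+/- and 5.88 to 8.04 (median 6.63) in Pax5+/-;Myd88+/- leukemias, with no separation (-0.40 and -0.17, adjusted p = 0.446 and 0.764). One leukemia of each genotype stood high, Pax5+/- replicate 2 at 7.67 and Pax5+/-;Myd88+/- replicate 4 at 8.04. The summed level of 11 T cell markers was the highest of its genotype in the same 2 arrays (11.34 and 11.86, against 10.12 to 11.06 in the other leukemias), and so was that of 6 plasmacytoid dendritic cell markers (13.95 and 14.33, against 10.31 to 13.08). Of the T cell list it was Cd4, also expressed by plasmacytoid dendritic cells, that stood high there (10.56 and 11.28, against 6.31 to 9.45). Cd3d, Cd3e, Cd3g, Cd8a and Cd8b1 were at most 7.65 in all 12 leukemias. At these low levels Cd3d, Cd3g and Cd8b1 were still the highest of their genotype in both arrays (5.96, 6.01 and 5.88, and 5.80, 6.52 and 6.12). Cd3e and Cd8a were so only in Pax5+/-;Myd88+/- replicate 4 (7.65 and 6.91). The monocyte and macrophage level was the highest of its genotype in that array (13.83), but not in Pax5+/- replicate 2 (13.34). The part of these markers in the Cd28 values was not tested.

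Prdm1 stayed below the median of each array in every group. It read 5.34 to 5.67 on all 16 proB arrays, and its differences from WT lay between -0.02 and 0.06 in the 3 genotypes (limma adjusted p at least 0.778). In the leukemia experiment it was higher in the sorted WT cells, at 6.53, 6.57, 6.79 and 6.50, than in Pax5+/- leukemias (5.64 to 6.46, median 5.96) and Pax5+/-;Myd88+/- leukemias (5.49 to 6.39, median 5.71). No leukemia overlapped the sorted cells. The leukemias were 1.50-fold lower (-0.58, 95% interval -0.95 to -0.21, limma adjusted p = 0.0236) and 1.75-fold lower (-0.81, -1.18 to -0.44, adjusted p = 0.00209), the former ending without sorted replicate 3 (adjusted p = 0.077).

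Markers of NK cells were likewise higher in the sorted WT cells. Their summed level, over 8 of 8 markers, was 11.40 to 12.31 in the sorted WT cells, against 8.70 to 10.24 in the leukemias and 8.66 to 9.02 in the proB arrays, and 7 of the 8 were called lower in each leukemia genotype. Ncr1, which encodes the NK receptor NKp46, was at 9.44 ± 0.37 (SD, n = 4) in sorted cells and 5.30 ± 0.08 (n = 6) in Pax5+/- leukemias. NK cells were not alone in this against the proB arrays. The summed plasmacytoid dendritic cell level was 12.49 to 13.13 in sorted cells, 9.85 to 10.93 in proB arrays and 10.31 to 14.33 in the leukemias. The plasma cell markers did not move one way. Their summed level was 13.33 to 13.52 in sorted cells, 11.52 to 12.37 in proB arrays and 12.40 to 13.47 in the leukemias. In each leukemia genotype 3 of 8 were called lower and 0 higher, namely Slamf7, Irf4 and Sdc1 (-2.51, -2.43 and -1.32 in Pax5+/- leukemias), while 5 and 4 of the 8 had a difference above 0 and the medians were 0.21 and -0.09. What part these cells had in the Prdm1 values was not tested, and fewer cells of a type and less RNA per cell cannot be told apart in bulk samples.

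**Figure D2:**
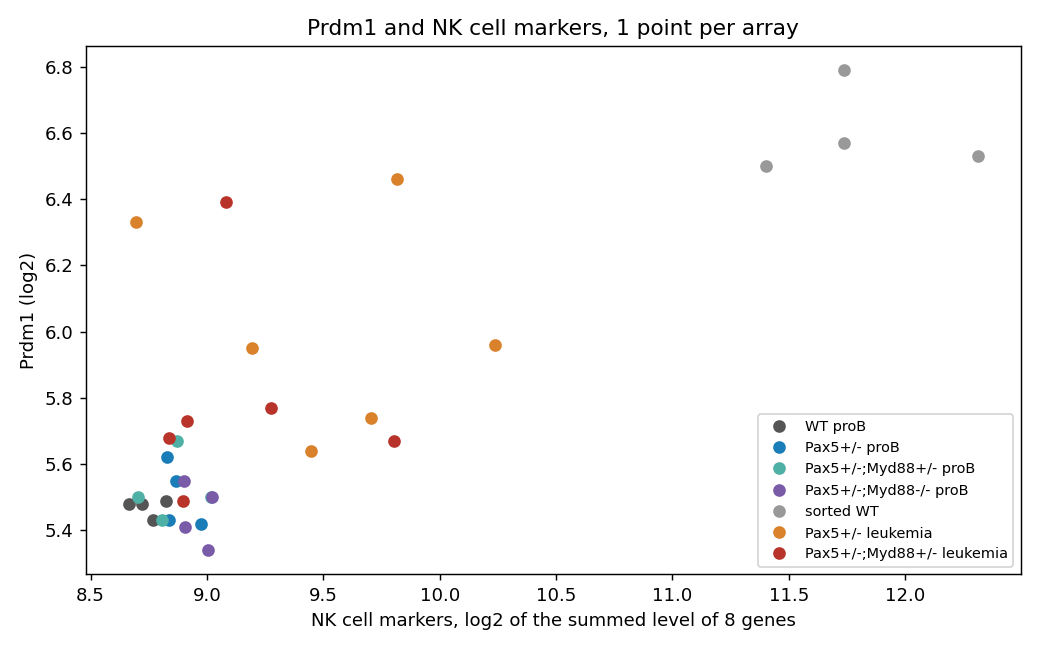
Prdm1 expression (log2, vertical axis) against the log2 of the summed level of 8 NK cell markers (horizontal axis), 1 point per array, coloured by group. The 4 sorted WT arrays stand apart at Prdm1 of 6.50 to 6.79 and an NK marker level of 11.40 to 12.31.

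Counted together, the 5 genes did not move as 1 group. Against the sorted WT cells 3 of 5 were called in Pax5+/- leukemias (Flt3, Emb and Grap2) beside 4.44% of all probesets, and 2 of 5 (Flt3 and Emb) beside 7.63% in Pax5+/-;Myd88+/- leukemias. Without a minimum fold, 4 of 5 passed in each, with Prdm1 lower and the others higher, where 24.5% and 30.9% of all probesets passed. In proB cells the same rule passed Flt3 and Cd28 (higher) and Grap2 (lower) for the 3 genotypes together, beside 9.24% of all probesets. It passed Flt3 and Grap2 in Pax5+/- (7.06%), Flt3, Cd28 and Grap2 in Pax5+/-;Myd88+/- (6.06%), and Flt3 and Emb in Pax5+/-;Myd88-/- cells (15.7%). The comparisons within an experiment share their WT arrays.

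**Figure D3:**
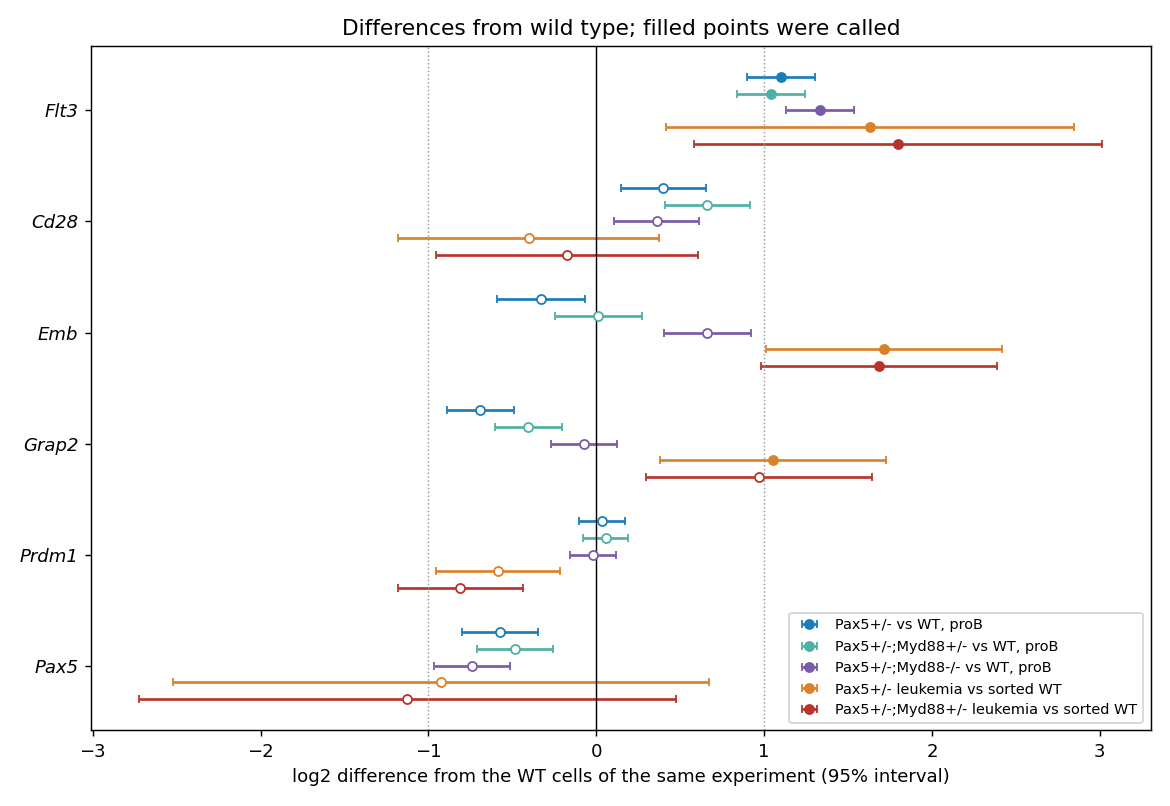
Log2 difference of each gene and of Pax5 from the WT cells of the same experiment (horizontal axis, with 95% intervals from limma) for the 3 proB genotypes and the 2 leukemia genotypes; filled points were called and dotted lines mark a fold of 2. Flt3 lies above 0 in all 5 comparisons, whereas Grap2 lies below 0 in the proB comparisons and at 1.05 and 0.97 in the leukemias.

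The leukemias differed from their sorted reference in other cell types too. Of 9 stromal markers 6 were called higher in Pax5+/- and 5 in Pax5+/-;Myd88+/- leukemias, and their summed level was 11.72 to 12.99 and 10.76 to 13.46, against 9.89 to 10.08 in sorted cells. Of 10 monocyte and macrophage markers 5 and 3 were called higher, and of 8 endothelial markers 6 and 2. In replicate 6 the monocyte and macrophage level was the lowest of each genotype (11.75 and 10.28), as were Flt3, Emb and Grap2. The part of these markers in the results was not tested.

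Among proB cells with 1 Pax5 allele, those lacking both Myd88 alleles had higher Emb and Grap2. Against Pax5+/- cells, sex cannot be told apart from this loss. The means were 0.65 higher for Emb and 0.33 higher for Grap2 than in Pax5+/-;Myd88+/- cells, which matched in Xist. The arrays of these genotypes did not overlap for either gene, and the difference was not tested. Myd88 itself fell by 0.63 in Pax5+/-;Myd88+/- (limma adjusted p = 0.000549) and by 1.96 in Pax5+/-;Myd88-/- proB cells (adjusted p = 1.02e-09) against Pax5+/-, and by 1.30 between the leukemia genotypes (adjusted p = 1.86e-05). In proB cells with 1 Pax5 allele, Pax5+/-;Myd88+/- and Pax5+/- arrays gave 0 of 5 called by limma, where 0.812% of all probesets were, and 0 of 5 without a minimum fold, where 4.3% were. Cd28, Emb and Grap2 had an unadjusted p below 0.05 (differences of 0.26, 0.34 and 0.29), and the methods' t-test after adjustment and the exact permutation test passed 0. With the array sets as a block Grap2 passed without a minimum fold (limma adjusted p = 0.00495). Complete loss of Myd88 gave 0 of 5 called (0.985% of all probesets) and, without a minimum fold, Emb and Grap2 (11.5%), with 2 by the methods' t-test, as well as unadjusted p = 0.0286 for Flt3 (0.23, 95% interval 0.03 to 0.43). Between the leukemia genotypes 0 of 5 were called (3.82%) and 0 passed without a minimum fold (34.4%), at an unadjusted p below 0.05 or by the methods' t-test. The intervals there were wide, for Flt3 from -0.92 to 1.26. The difference between the Myd88 effects in leukemia and in proB cells gave 0 of 5 called (4.56%), 0 without a minimum fold (21.8%) and 0 at an unadjusted p below 0.05.

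Within each leukemia genotype the 5 genes were set against Pax5 mRNA, not its activity, over 6 arrays. This makes 10 relations, tested by exact 2-sided permutation. None passed after adjustment, for Pearson's r (adjusted p at least 0.535) or Spearman's rho (at least 0.583). The largest r was that of Cd28 in Pax5+/- leukemias (r = -0.92, permutation p = 0.0667; rho = -0.41, permutation p = 0.433). Without the 2 arrays farthest from the Pax5 median r was -0.51, so it rests on those arrays, of which replicate 2 had a Pax5 of 7.69 and the highest Cd28. In Pax5+/-;Myd88+/- leukemias Cd28 had r = -0.61 and rho = -0.83 (permutation p = 0.204 and 0.0583), with r = -0.72 without the 2 farthest arrays. Flt3 had r = -0.70 and rho = -0.71 there (permutation p = 0.107 and 0.136; r = -0.79 without the 2 farthest arrays) and r = -0.40 and rho = -0.43 in Pax5+/- leukemias (permutation p = 0.417 and 0.419), where r was 0.86 without them. For Emb, Grap2 and Prdm1 r lay between -0.59 and 0.18, and these values changed with single arrays. Leaving out 1 array moved r for Grap2 in Pax5+/- leukemias between -0.62 and 0.94, and for Emb in Pax5+/-;Myd88+/- leukemias between -0.41 and 0.86. In both genotypes replicate 6 had the highest Pax5, at 12.29 and 11.95, together with the lowest Flt3, Emb and Grap2.

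**Figure D4:**
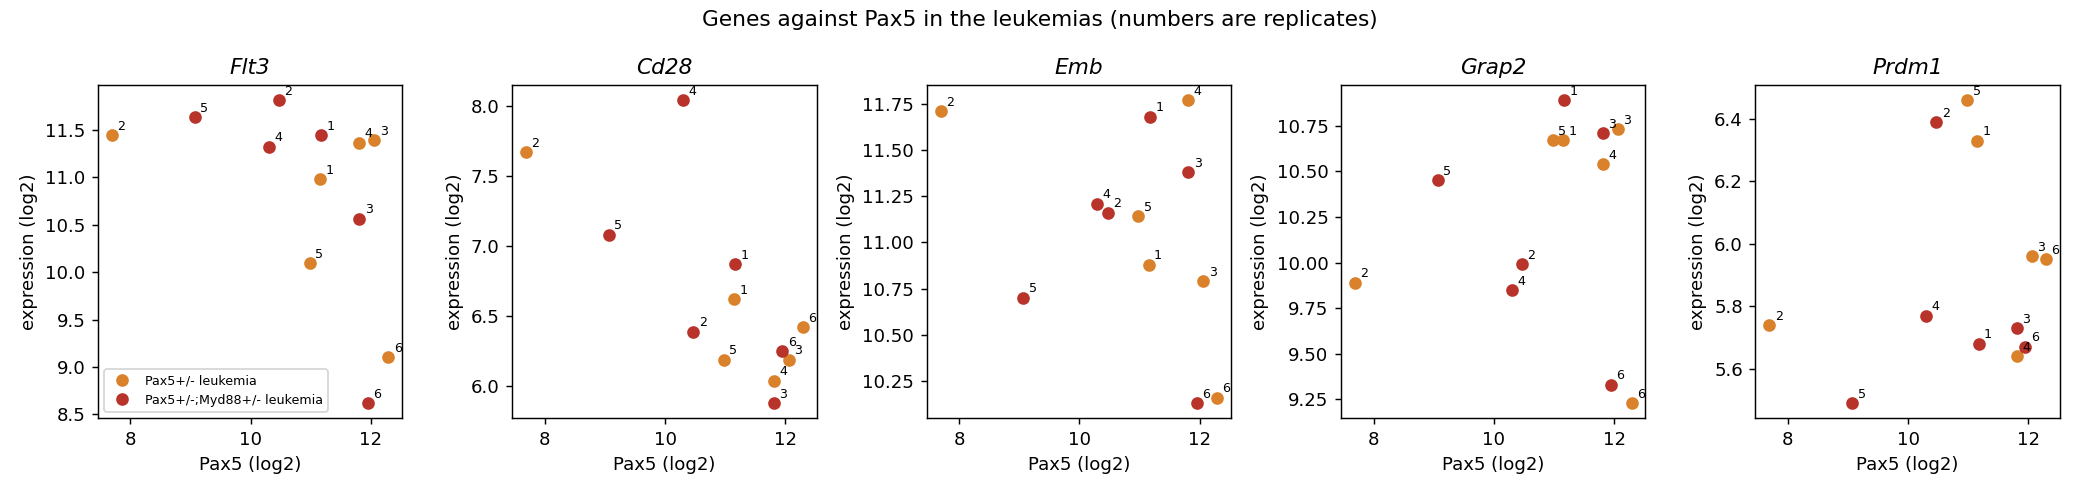
Expression (log2) of each gene against Pax5 (log2) in the 12 leukemias, coloured by genotype and numbered by replicate. Replicate 6 of each genotype lies at the lower right for Flt3, Emb and Grap2, and Pax5+/- replicate 2 at the far left, with a Pax5 of 7.69.

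Across all groups, the order of Flt3 means was Pax5+/-;Myd88+/- leukemia (10.90 ± 1.20, SD, n = 6), Pax5+/- leukemia (10.73 ± 0.95, n = 6), Pax5+/-;Myd88-/- (10.45 ± 0.03, n = 4), Pax5+/- (10.22 ± 0.12) and Pax5+/-;Myd88+/- proB cells (10.16 ± 0.11), WT proB cells (9.12 ± 0.24) and sorted WT cells (9.10 ± 0.20). Of these neighbours, Pax5+/-;Myd88-/- against Pax5+/- proB cells (a gap of 0.23) and Pax5+/-;Myd88+/- against WT proB cells (1.04) were farther apart than the larger SD of the pair. For Emb the leukemias and Pax5+/-;Myd88-/- proB cells led within their spread (11.08, 11.04 and 10.90), and sorted WT cells were lowest (9.36 ± 0.42). For Grap2 WT proB cells led (10.76 ± 0.10) and sorted WT cells were lowest (9.24 ± 0.11). For Cd28 the Pax5+/-;Myd88+/- proB cells led (7.72 ± 0.31), and for Prdm1 the sorted WT cells (6.60 ± 0.13). Levels of the 2 experiments stand side by side without a test, since cell source and experiment cannot be told apart.

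Other genes that Pax5 represses did not move as 1 group either. Of 13 such genes measured, 1 was called higher and 1 lower for the 3 proB genotypes together, with a median difference of -0.01, the same as over all probesets (-0.01). Ccl3, a chemokine of myeloid cells, rose by 3.73 (SE 0.18, limma adjusted p = 6.92e-10). Ccr2, a chemokine receptor of monocytes, was lower by the same pooling (-1.36, adjusted p = 0.000233), but differed by genotype, at 10.41 in Pax5+/- against 10.06 in WT cells (adjusted p = 0.553), 7.69 in Pax5+/-;Myd88+/- and 8.0 in Pax5+/-;Myd88-/- cells. The last 2 are the proB genotypes with high Xist, so sex cannot be told apart from loss of Myd88 there. In leukemias 0 were called higher and 2 lower in Pax5+/- (median 0.37, over all probesets -0.03), and 1 higher and 5 lower in Pax5+/-;Myd88+/- (median -0.52, over all probesets -0.01). Ccl3 there was lower (-2.48 and -3.18) against the sorted cells (adjusted p = 0.00233 and 0.000167), and Csf1r, the receptor of macrophage growth factor, rose by 2.98 in Pax5+/-;Myd88+/- leukemias (adjusted p = 0.0051). Csf1r is also among the 10 monocyte and macrophage markers, of which 3 were called higher in these leukemias. The part of such cells in its rise was not tested.

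Of 16 measured genes that Pax5 activates, 0 were called higher and 2 lower for the 3 proB genotypes together (median -0.18). These were Bst1, a surface enzyme of B-cell precursors (-1.32, limma adjusted p = 0.000169), and Spib, an Ets factor of the B lineage (-1.05, adjusted p = 1.19e-05). By genotype the calls against WT differed. In Pax5+/- cells 1 was higher and 2 lower (Bst1, Spib and Cd72), and in Pax5+/-;Myd88+/- cells 0 and 2 (Spib and Bst1). Pax5+/-;Myd88-/- cells had 0 higher and 1 lower (Ikzf3). In the leukemias 8 and 11 of the 16 were called lower and 0 higher, with medians of -1.66 and -2.31. Cd72, an inhibitory B-cell receptor, differed by -4.07 and -3.75 and Ikzf3, which encodes Aiolos, by -3.56 and -4.66. These lists are described by their counts and medians alone.

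The genes most like each of the 5 over the 32 arrays were found by Pearson's r, a description in which the arrays share groups and experiments. They were Slc49a4 (r = 0.84), Saraf and Peak1 for Flt3, Sgcb (0.82), Heatr5b and Nfxl1 for Cd28, and Anxa9 (0.90), Tk1 and Ap2a2 for Emb. For Grap2 they were Usp5 (0.83), Eid3 and Pvt1, and for Prdm1 Xk (0.93), Trib2 and Plxdc2. Among the 5 genes themselves the highest r was between Flt3 and Emb (0.74), and the lowest between Grap2 and Prdm1 (-0.56).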

How the data were processed

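The deposited values are log2, made by the authors with Transcriptome Analysis Console by RMA per gene (background correction, quantile normalization and probe summary; mm10), rounded to 2 decimals. Whether all 32 arrays were normalized together is not given in the sources used here. RMA compresses low signals, so folds of dim genes such as Prdm1 can be understated. The platform annotation names 1 gene for 21789 of the 28944 probesets, several for 1621 and none for 5534. Limma 3.58.1 (R 4.3.3) was fitted to all probesets, 1 fit per experiment and 1 over all arrays for differences between experiments, with Benjamini-Hochberg adjustment. Calls needed an adjusted p below 0.05 and a fold over 2. Replicate numbers were checked by the correlation of deviations from group means, which was over 0.1 in every pair for WT against Pax5+/-;Myd88-/- proB cells (0.117 to 0.216), where the labels give no shared animal or culture and the replicate block changed no call, and not in every pair elsewhere. Single genes were also tested by exact permutation, 2-sided. The code was tested on simulated data. Gene lists (116 of 125 genes measured, updated symbols matched by gene ID) and the genes described were chosen with earlier results of these data known. Named from a list are at most the 3 called genes with the largest difference, and marker genes with their levels. Marker levels are the log2 of summed linear values. Alternatives covered the arrays fitted, centring, normalization, a filter at a mean of 6, limma-trend, array weights, the replicate block, proB arrays 1 and 3 against 2 and 4, the methods' t-test and each array left out.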

Additional observations from a re-analysis of the deposited data

Results flagged for a closer look

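In 4 of 42 combinations of gene and group 1 array lay far from the others, by the gap to its neighbour over the whole range (Dixon's test at 95%, which chance passes in about 1 of 20 groups). These were Cd28 in Pax5+/- leukemia replicate 2 (7.67, a gap of 0.644 of the range), Pax5 in the same array (7.69, 0.715), Prdm1 in Pax5+/-;Myd88+/- leukemia replicate 2 (6.39, 0.689) and Prdm1 in WT proB replicate 3 (5.43 beside 5.48 to 5.49, 0.833).

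The difference between the Pax5+/- effect in leukemia and in proB cells was 2.045 for Emb (limma adjusted p = 0.000319) and 1.74 for Grap2 (adjusted p = 0.000895). For Grap2 the effects ran in opposite directions, and the difference stayed called with each array left out, but not with proB arrays 1 and 3, and 2 and 4, averaged (adjusted p = 0.0537). The Grap2 means of the 2 WT references differed by 1.52 and those of the Pax5+/- groups by 0.22. The WT cells of the 2 experiments were obtained differently, and the part of this in the difference cannot be told apart from that of leukemia.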

How the results depend on the processing

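Counts of called genes stayed within 1.5 times the reported count in 250 recalculations and moved further in 44. Without a minimum fold the counts became 3 for the 3 proB genotypes together, 2 for Pax5+/-, 3 for Pax5+/-;Myd88+/- and 2 for Pax5+/-;Myd88-/- against WT, 2 for Pax5+/-;Myd88-/- against Pax5+/- proB cells, 4 for Pax5+/-;Myd88+/- leukemias and 3 for the difference of the Pax5+/- effects. With all arrays in 1 fit they became 0 in the 4 comparisons with WT proB cells. Array weights, whose estimation is less certain, gave 0 for Pax5+/-;Myd88+/- against WT, 1 for Pax5+/-;Myd88-/- against Pax5+/- proB cells and 3 for Pax5+/-;Myd88+/- leukemias. Median centring gave 1 for Pax5+/-;Myd88-/- against Pax5+/- proB cells. Renewed quantile normalization gave 2 for Pax5+/- and 3 for Pax5+/-;Myd88+/- leukemias, and the methods' t-test 1 for the latter. With each array left out in turn the counts ranged from 0 to 1 for Pax5+/-;Myd88+/- against WT and for Pax5+/-;Myd88-/- against Pax5+/- proB cells, from 1 to 3 for each leukemia genotype against sorted WT, and from 2 to 3 for the difference of the Pax5+/- effects. Of 3 alternatives chosen after seeing the data, averaging the WT pairs and a block of proB arrays 1 and 3 against 2 and 4 changed no count, and averaging these array sets in every proB genotype gave 1 for the difference of the Pax5+/- effects.

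Correlations of deviations between arrays of the same replicate number were between -0.272 and 0.521, and over 0.1 in every pair only for WT against Pax5+/-;Myd88-/- proB cells. As a replicate block it gave 3 called in Pax5+/-;Myd88+/- leukemias and 3 for the difference of the Pax5+/- effects, changed no other count, and raised the adjusted p of Prdm1 in Pax5+/- leukemias to 0.0665.

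The 35 differences that changed sign concerned uncalled genes with values near 0. With arrays left out in turn, in proB cells, Prdm1 ranged from -0.0033 to 0.0633 (Pax5+/- against WT), -0.0533 to 0.0167 (Pax5+/-;Myd88-/- against WT) and -0.0283 to 0.0583 (Pax5+/-;Myd88+/- against Pax5+/-), Emb from -0.0867 to 0.1067 (Pax5+/-;Myd88+/- against WT) and Cd28 from -0.08 to 0.04 (Pax5+/-;Myd88-/- against Pax5+/-). Cd28 ranged from -0.431 to 0.001 in Pax5+/-;Myd88+/- leukemias against sorted WT. Between leukemia genotypes the ranges were -0.1553 to 0.6253 for Flt3, -0.0277 to 0.4597 for Cd28, -0.2147 to 0.151 for Emb and -0.2967 to 0.0897 for Grap2, and for the difference of the Myd88 effects -0.0928 to 0.6878 for Flt3 and -0.2902 to 0.1972 for Cd28. Median centring gave 0.015 for Prdm1 (Pax5+/-;Myd88-/- against WT) and 0.015 for Cd28 (Pax5+/-;Myd88-/- against Pax5+/-). Renewed normalization gave 0.0008 for the former, and 0.0646 for Emb and 0.0494 for Grap2 between leukemia genotypes. Array weights gave -0.006 for Prdm1 (Pax5+/-;Myd88+/- against Pax5+/-), 0.0742 for Emb and 0.0734 for Grap2 between leukemia genotypes, and 0.1205 for Cd28 in the difference of the Myd88 effects. The cause was not tested.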

Other observations

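Of 9 other progenitor genes measured, 0 were called for the Pax5+/- proB genotypes together, where 4 were above 0 and the median was -0.01. Against WT, 0 were called in Pax5+/-;Myd88+/- and 0 in Pax5+/-;Myd88-/- proB cells. In Pax5+/- proB cells 1 was called, Cd93, which was higher (12.52 against 11.30 in WT, a difference of 1.21, limma adjusted p = 9.90e-05). In each leukemia genotype 1 of the 9 was called higher against sorted WT and 0 lower, with medians of 0.29 and 0.06. Cd34 rose by 2.08 in Pax5+/- leukemias (limma adjusted p = 0.000446), and Kit by 1.54 in Pax5+/-;Myd88+/- leukemias (adjusted p = 0.0283). Between the leukemia genotypes Cd34 was called lower in Pax5+/-;Myd88+/- leukemias. Ly6d, a surface protein of the Ly6 family that marks B-biased lymphoid progenitors, read 6.51 in WT proB cells and rose by 1.42 in Pax5+/-;Myd88+/- and by 1.80 in Pax5+/-;Myd88-/- proB cells (adjusted p = 1.10e-05 and 8.07e-07), the 2 genotypes with high Xist. Against Pax5+/- proB cells the rises were 1.38 and 1.76 (adjusted p = 2.12e-05 and 1.31e-06).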
